A study of Mus musculus with 8 samples.

Results

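The baseline transcriptome of control spermatogonia was described in 4 control libraries of the 8 in the series. The other 4, from Kdm1a knockout germ cells, were not used. Cells came from testes of C57BL/6 mice carrying the GOF/deltaPE-Oct4/GFP reporter at 6 days after birth, and GFP-positive germ cells were sorted by fluorescence. The labels call the genotype only control, and do not say which floxed or Cre alleles those mice carried, or whether each library held 1 animal or a pool. How much of the spread between libraries lies between animals and how much is technical is therefore not known. Levels are given as FPKM, which divides fragment counts by transcript length in kilobases and by library size. They were added up over the transcripts of each gene, so a short transcript can hold much of a gene's sum. Of 17589 genes in the table, 15421 were analysed after 2168 with microRNA, small nucleolar, scaRNA or numbered Rn and Gm symbols were left out. Each library was inferred to hold 61000000 to 67000000 fragments. Replicate 1 stood apart in markers of somatic testis cells, whose summed level was 132 FPKM there and 74.9 to 83.1 FPKM in the others. Values without it are given for Pou5f1 and for the medians of the somatic and spermatogonial markers. Means of other genes include it and can differ without it, as for Kit, with 45.9 FPKM over all libraries and 41.3 FPKM without replicate 1.

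Spermatogonia are the mitotic germ cells of the testis. Those with stem cell activity answer to GDNF, a growth factor from Sertoli cells, through the receptor pair GFRA1 and RET. As they commit to differentiation under retinoic acid they switch on the receptor tyrosine kinase KIT and the meiotic gatekeeper STRA8. The first wave of spermatogenesis is under way at this age in the mouse, so both kinds of cell are present. In RNA pooled over sorted cells, fewer cells of a type and less RNA per cell cannot be told apart.

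Of the 8 spermatogonial markers, the pan-germ-cell genes Dazl and Ddx4 were the most abundant. Dazl, an RNA-binding translational regulator of germ cells, had 391, 368, 406 and 435 FPKM in control replicates 1 to 4, a mean of 399.7 ± 28.1 (SD, n = 4), which made it gene 99 of 15421 by mean FPKM. Its place varied only from 93 to 105 among the libraries. Ddx4, the VASA helicase of germ granules, had 197, 176, 216 and 202 FPKM, 198 ± 16.8 (SD, n = 4), at place 232. Both lay above the other 6 markers in all 4 libraries, and their highest value exceeded their lowest by 1.18-fold and 1.23-fold.

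The other 6 of the 8 spermatogonial markers lay between 34.6 and 61.8 FPKM. Zbtb16 encodes PLZF, a transcription factor of undifferentiated spermatogonia, and had 71.8, 57.3, 61.3 and 54.3 FPKM, 61.2 ± 7.62 (SD, n = 4). Stra8 had 70.9, 71.6, 56.9 and 48.1 FPKM, 61.8 ± 11.4 (SD, n = 4). Kit had 59.9, 60.3, 33.3 and 30.2 FPKM, 45.9 ± 16.4 (SD, n = 4). Kit and Stra8 were both higher in replicates 1 and 2 than in replicates 3 and 4. The GDNF receptor went the other way. Gfra1 had 27.4, 25.2, 38.6 and 47.3 FPKM, 34.6 ± 10.3 (SD, n = 4). Ret, its signalling partner, had 33.05, 32.2, 45.3 and 49.8 FPKM, 40.1 ± 8.82 (SD, n = 4). The order of Kit and Gfra1 was therefore not the same in all libraries: Kit exceeded Gfra1 by 2.19-fold and 2.39-fold in replicates 1 and 2, and was 0.862 and 0.639 of it in replicates 3 and 4. Ret exceeded Gfra1 in all 4, by 1.05-fold to 1.28-fold. Given these spreads, no order could be read among Stra8, Zbtb16 and Pou5f1, nor between Kit and either GDNF receptor gene.

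Pou5f1, which encodes OCT4, had 37.0, 74.0, 58.6 and 72.5 FPKM, 60.5 ± 17.1 (SD, n = 4). Replicate 1 was the lowest, and the mean without it was 68.3 FPKM. The sort used a reporter driven by Pou5f1 regulatory sequence, so the presence of this transcript describes the gate and is not a finding. Replicate 1 was also the library in which markers of somatic cells were highest, as given further on. Their part in its low Pou5f1 was not tested.

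**Figure D1:**
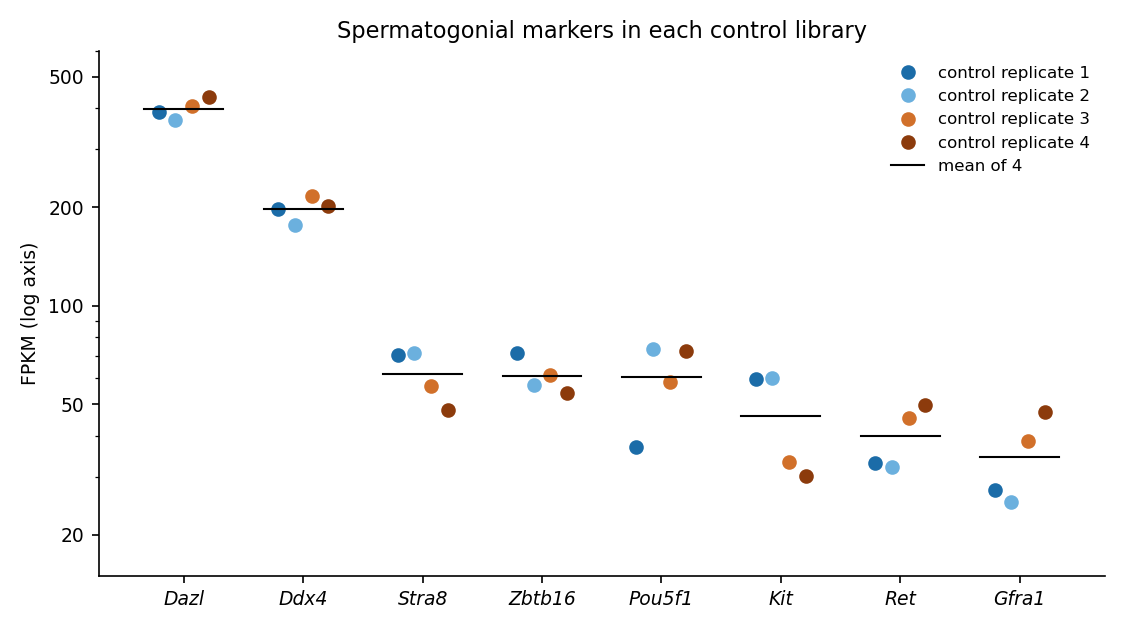
FPKM (log axis) of the 8 spermatogonial markers, with a point for each control library and a line for the mean of 4. Dazl and Ddx4 lie above the other 6 genes in every library, Kit and Stra8 are higher in replicates 1 and 2, Ret and Gfra1 are higher in replicates 3 and 4, and Pou5f1 is lowest in replicate 1.

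Other genes of the undifferentiated state were present over a wide range. All 12 members of the list of GDNF receptor and GDNF-responsive genes had a mean of at least 1 FPKM, with a list median of 15.4 FPKM against 7.27 over all analysed genes. Of all 15421 analysed genes, 11946 (77.5%) reached 1 FPKM and 6783 reached 10 FPKM. Counts for this and later lists are to be read beside these shares. Genes that the table does not hold enter neither the shares nor the lists, and their levels are unknown. Etv5, a transcription factor needed for stem cell renewal, had 37.0, 26.0, 43.0 and 47.4 FPKM. Bcl6b, another GDNF-induced factor, had 20.9, 21.7, 26.1 and 24.7 FPKM. Replicate 2 was the lowest library for 9 of these 12 genes and replicate 4 the highest for 7. Over the 8692 genes that averaged 5 FPKM or more, replicate 2 was the lowest for 3551 and replicate 4 the highest for 2700. Whether the list leans further than these genes was not tested. Id4, an inhibitor of differentiation used to mark the stem cell fraction, had 17.4, 12.7, 24.5 and 28.6 FPKM. The low end of the list held the T-box gene T (brachyury), at 2.77, 1.90, 7.76 and 3.53 FPKM, and the early growth response gene Egr3, at 1.57, 1.57, 2.61 and 2.39 FPKM.

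The stem cell transcription factors as a list had a median of 21.4 FPKM over 14 analysed genes. Of the 14, 13 reached 1 FPKM, against 11946 of all 15421 analysed genes. Sall4, a zinc-finger factor that acts with PLZF, led them at 76.4 ± 5.06 FPKM (SD, n = 4). Foxo1, an effector of PI3K signalling required for stem cell maintenance, followed Zbtb16 at 47.5 ± 4.24 FPKM (SD, n = 4), and Glis3 had 35.4 ± 3.56 FPKM (SD, n = 4). Pax7, a marker of a rare stem cell subset, was the lowest at 0.978 FPKM, and Id2 was next at 1.08 FPKM. Among surface proteins Mcam was the most abundant, at 142, 141, 187 and 214 FPKM, so that replicates 3 and 4 were again above replicates 1 and 2. The tetraspanin Cd9 ran from 57.4 FPKM in replicate 2 to 123.2 FPKM in replicate 4. The integrin chains Itgb1 and Itga6 were steadier, at 68.8 and 54.1 FPKM. Thy1, a widely used enrichment antigen, had 1.37 FPKM and was the lowest of 11 surface genes.

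Genes of differentiating spermatogonia were abundant as well, and those of progenitors less so. The 8 progenitor genes had a median of 15.6 FPKM, and 5 reached 10 FPKM, against 6783 of all 15421 analysed genes. Magea4 was the lowest of the 8, at 1.33 FPKM. Lin28a, which blocks let-7 maturation, had 83.7, 71.3, 73.6 and 68.6 FPKM. Nanos2, a translational repressor that protects the stem cell state, had only 4.89, 3.51, 7.36 and 8.84 FPKM, and its relative Nanos3 had 12.5, 13.8, 23.2 and 24.2 FPKM. Both Nanos genes were higher in replicates 3 and 4. In the list of 11 differentiating genes the median was 48.3 FPKM and 10 reached 10 FPKM, against 6783 of all 15421 analysed genes. Dmrt1, which restrains meiotic entry, had 201, 181, 208 and 205 FPKM, close to Ddx4. The helix-loop-helix factors Sohlh1 and Sohlh2 had 111 ± 7.98 and 52.9 ± 5.01 FPKM (SD, n = 4). Replicate 4 was the lowest library for 8 of the 11 differentiating genes, against 2347 of the 8692 genes of at least 5 FPKM.

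Coding exons that differ between transcripts of these genes, and the share of expression that carried them, were read from the transcript values. The share below is the FPKM of protein-coding transcripts with a segment over the FPKM of those with and without it. Cufflinks estimates these splits from short fragments, so they are estimates. The segments with the clearest readout are printed 5′ to 3′ on the coding strand, in GRCm38 coordinates of the GENCODE M21 annotation, with the alternative bases in capitals and 12 shared coding or flanking bases on each side.

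The Kit segment lies just before the part that encodes the membrane anchor and gives the receptor forms with and without a short extracellular insert. It is at chr5:75639147-75639158 on the plus strand.
Kit insert: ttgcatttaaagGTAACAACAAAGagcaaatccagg
Transcripts with these 12 bases held 42.5%, 42.7%, 44.0% and 50.1% of coding Kit FPKM in replicates 1 to 4. Both forms were therefore made in comparable amounts, the form without the insert at 23.8 ± 9.25 FPKM and the form with it at 18.8 ± 5.51 FPKM (SD, n = 4). The form with the insert had its highest share in replicate 4, the library with the lowest total of Kit.

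The co-receptor gene Gfra1 uses a 15-base exon, at chr19:58392573-58392587 on the minus strand, and Ret uses alternative last exons that give the RET9 and RET51 tails. The short Ret tail is at chr6:118155259-118155287 on the minus strand.
Gfra1 exon: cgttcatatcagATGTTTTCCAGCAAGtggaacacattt
Ret short tail: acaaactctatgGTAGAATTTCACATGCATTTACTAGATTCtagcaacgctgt
The Gfra1 exon was carried by 24.9%, 31.6%, 24.7% and 23.9% of the coding FPKM compared, so the shorter receptor form prevailed in all 4 libraries. The short Ret tail held 83.0%, 85.8%, 86.7% and 91.8%, 86.8 ± 3.66% (SD, n = 4). The long-tail form of Ret stayed at 4.08 to 6.03 FPKM, and the higher Ret of replicates 3 and 4 lay in the short-tail form, at 27.4, 27.7, 39.3 and 45.7 FPKM.

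Germ cell regulators also showed a single prevailing form. Ddx4 has a 78-base coding exon at chr13:112641150-112641227 on the minus strand.
Ddx4 exon: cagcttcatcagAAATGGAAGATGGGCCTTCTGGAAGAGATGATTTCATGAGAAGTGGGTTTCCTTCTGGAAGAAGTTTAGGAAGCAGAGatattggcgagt
It was present in 97.6% to 98.2% of the coding FPKM. For Stra8, the transcript with 333 additional N-terminal coding bases held only 2.17% to 3.05%, and the shorter form made up the rest at 60.2 ± 10.95 FPKM (SD, n = 4). For Sall4, the long form that carries the 2367-base central coding part held 77.7%, 76.6%, 65.7% and 58.0%. The short Sall4 form was 14.8, 14.8, 25.02 and 27.2 FPKM, so that its share was higher in replicates 3 and 4.

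Kdm1a, the histone H3 lysine 4 demethylase gene deleted in the other group of the series, has a 60-base alternative coding exon at chr4:136582040-136582099 on the minus strand. Its gene total was 53.7, 54.0, 92.0 and 48.1 FPKM, with replicate 3 apart from the others.
Kdm1a exon: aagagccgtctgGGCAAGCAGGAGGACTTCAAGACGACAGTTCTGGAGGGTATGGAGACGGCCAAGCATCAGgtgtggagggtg
The exon was carried by 62.7%, 67.6%, 64.0% and 63.8% of the coding FPKM compared. The high total of replicate 3 was thus shared by the forms with the exon, at 53.1 FPKM, and without it, at 29.9 FPKM.

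The de novo DNA methyltransferases, which set methylation in germ cells, were expressed in several forms. For Dnmt3a the short form, which starts from an internal promoter, exceeded the long form in every library: the long form held 33.02%, 36.6%, 31.9% and 34.4%. For Dnmt3b, transcripts with the 60-base exon at chr2:153670849-153670908, plus strand, held a share that hardly varied, 26.5%, 25.2%, 24.2% and 25.04%.
Dnmt3b exon: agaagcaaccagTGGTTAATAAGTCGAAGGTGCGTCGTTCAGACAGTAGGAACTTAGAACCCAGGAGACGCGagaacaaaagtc
The 189 bases of catalytic-domain exons were present in 64.9%, 64.7%, 67.0% and 69.4%, which leaves a form without them at 14.7 ± 3.91 FPKM (SD, n = 4). Single Dnmt3b transcripts moved much more. Dnmt3b-209 went from 16.0% in replicate 1 to 42.6% in replicate 4 of the gene's FPKM, and Dnmt3b-203 from 20.8% to 0.00255%. Dnmt3b-203 and Dnmt3b-209 have the same coding sequence, so these shifts left the split between coding forms within 5 percentage points.

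The pyruvate kinase gene Pkm chooses between exons of equal length, the M1 exon of adult muscle and the M2 exon of proliferating cells. The M2 exon is at chr9:59675568-59675734 and the M1 exon at chr9:59675029-59675195, both on the plus strand and both 167 bases.
Pkm M2 exon: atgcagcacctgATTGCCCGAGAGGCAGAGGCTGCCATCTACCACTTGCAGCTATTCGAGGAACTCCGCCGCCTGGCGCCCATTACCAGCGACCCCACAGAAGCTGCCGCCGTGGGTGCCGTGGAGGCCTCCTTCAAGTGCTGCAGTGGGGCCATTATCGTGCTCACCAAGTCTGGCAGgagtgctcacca
Pkm M1 exon: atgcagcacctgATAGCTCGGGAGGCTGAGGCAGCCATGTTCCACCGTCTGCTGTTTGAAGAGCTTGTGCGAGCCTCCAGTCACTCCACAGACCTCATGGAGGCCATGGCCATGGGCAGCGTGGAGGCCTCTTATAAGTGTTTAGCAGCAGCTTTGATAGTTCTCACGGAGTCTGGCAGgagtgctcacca
The M2 exon held 74.6%, 70.9%, 75.4% and 76.0% of Pkm FPKM. The M1 form was nonetheless abundant, at 68.6 ± 5.31 FPKM (SD, n = 4).

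Cdkn2a encodes 2 unrelated tumour suppressors from different initial exons, the p53 activator ARF and the CDK inhibitor INK4A. The Arf exon is at chr4:89294334-89294523 and the Ink4a exon at chr4:89281986-89282111, both on the minus strand.
Cdkn2a Arf exon: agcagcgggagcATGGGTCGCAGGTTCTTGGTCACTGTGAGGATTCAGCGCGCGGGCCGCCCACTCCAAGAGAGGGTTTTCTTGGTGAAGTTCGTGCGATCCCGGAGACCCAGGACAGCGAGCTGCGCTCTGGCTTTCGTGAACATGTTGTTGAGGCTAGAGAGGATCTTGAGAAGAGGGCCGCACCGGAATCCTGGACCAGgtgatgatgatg
Cdkn2a Ink4a exon: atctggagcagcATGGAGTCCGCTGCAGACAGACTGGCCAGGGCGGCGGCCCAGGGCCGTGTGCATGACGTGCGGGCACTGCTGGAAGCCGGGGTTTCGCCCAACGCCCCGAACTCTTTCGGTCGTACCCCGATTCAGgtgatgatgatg
The Arf form had 52.1, 46.7, 52.3 and 52.4 FPKM, and the Ink4a form 0.438, 0.472, 0.591 and 0.606 FPKM. Arf thus held 98.9% to 99.2% of the FPKM of these forms. Another Cdkn2a transcript of the table, which is not in the annotation used, averaged 2.03 FPKM, and of the whole gene Arf held 92.6% to 97.5%.

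Other panel genes ranged from near-even splits, in Tcf3 and Fgfr1, to a prevailing form, in Rara and Ezh2. Tcf3 exchanges the exons that give the helix-loop-helix proteins E47 and E12, and the E47 exon held 55.5%, 49.2%, 51.7% and 53.5%. Rara, the retinoic acid receptor alpha gene, used the initial coding exon of its alpha1 form for 77.9% to 83.3%. The Fgfr1 form with the outermost immunoglobulin domain held 45.4 ± 3.31% (SD, n = 4). Ezh2, the Polycomb methyltransferase gene, carried a 27-base coding segment in 71.7% to 78.01%. The other form has a shorter segment at that site. Zbtb16, Dazl, Sohlh1, Igf1r and Ccnd2 have a single transcript in the table, so they have no form to compare.

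**Figure D2:**
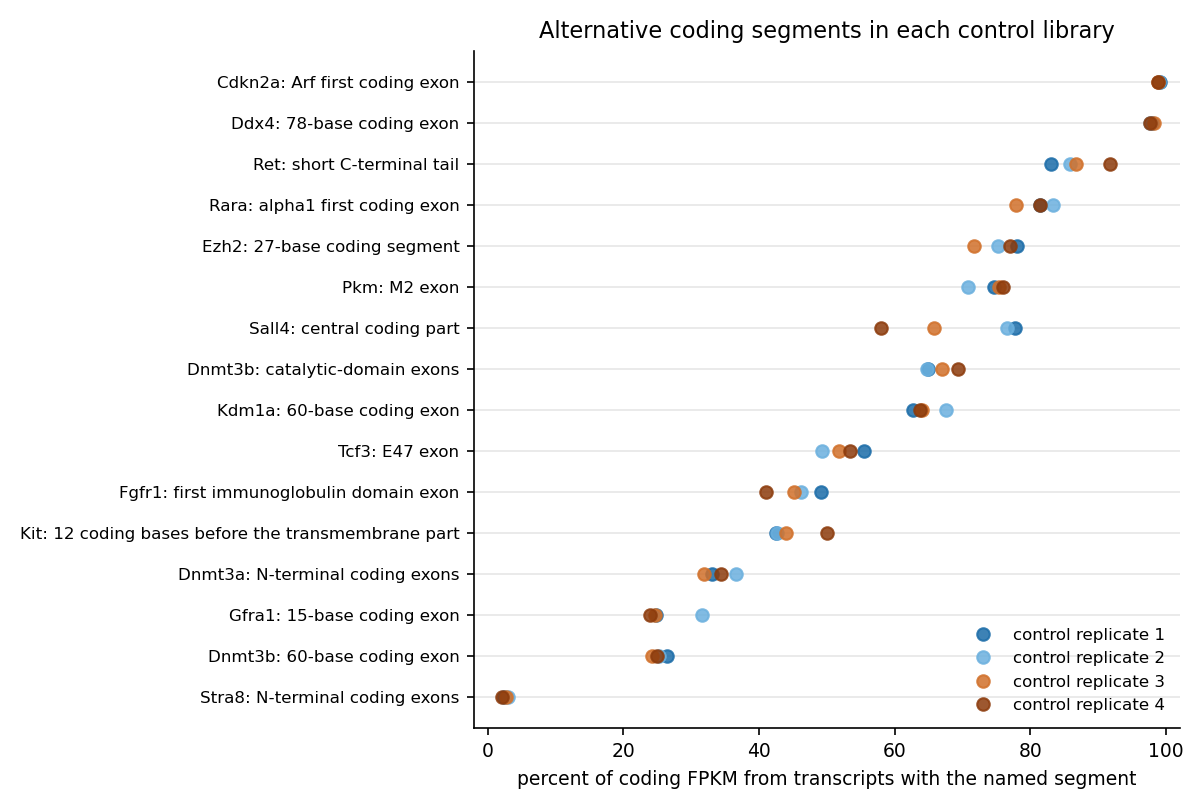
Percent of the compared coding FPKM that came from transcripts with the named coding segment, with a point for each control library. The points of most genes lie within a few points of each other, and Sall4 has the widest spread, from 58.0% to 77.7%.

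Across the genome, 8692 genes had a mean of at least 5 FPKM, and 6025 of them have 2 or more transcripts in the table. A transcript was called dominant where it held at least 50% of its gene in each of the 4 libraries. This was so for 4092 genes, 67.9% of the 6025, and 890 had a transcript with at least 90% in each. The median share of the top transcript was 67.5%, and its median range over the 4 libraries was 6.75 percentage points. The top transcript was annotated as protein coding in 5426 of the 6025 genes.

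The identity of the top transcript was not the same in all 4 libraries for 693 genes, 11.5%. Of these, 673 had protein-coding transcripts that could be grouped by identical coding sequence, and in 375 the top coding form was the same in all 4. That count includes 156 genes with a single coding form, for which nothing else was possible. The top coding form differed between libraries in 298. Of the 693, the 8 with the highest mean were Rps28, Rpl13a, Hspa8, Uchl1, Rpl27a, Dynll1, Hnrnpa2b1 and Ewsr1. For Uchl1, a deubiquitinase abundant in spermatogonia, the share of Uchl1-201 was 54.5%, 48.2%, 48.3% and 47.9%, and both main transcripts have the same coding sequence. For the chaperone gene Hspa8, Hspa8-201 held 36.9% in replicate 1 and 53.4% to 63.0% in the other libraries, and there the leading coding form differed too. Hspa8 and the ribosomal protein genes have many near-identical copies, so their splits are uncertain.

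At 50 FPKM or more, 44 genes had a dominant transcript that is not annotated as protein coding. The 8 highest were Rpl12, Rps20, Rpl23, Tpt1, Rpl35, Eef1b2, Snf8 and Minos1. Rps20-201, annotated as a retained intron, held 94.7% to 95.0% of Rps20, and Tpt1-204, a processed transcript, held 74.0% to 74.6% of Tpt1. Ribosomal protein genes have near-identical copies, so the assignment to a transcript is uncertain.

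By rank, the most abundant RNAs were those of the translation machinery. The 25 highest genes held 7.44%, 7.29%, 8.31% and 8.36% of the summed FPKM of analysed genes in replicates 1 to 4, and the top 1000 held 49.7% to 53.2%. At least 1 FPKM on average was reached by 11946 genes, 10 FPKM by 6783 and 100 FPKM by 616. Of the 25, 20 encode cytosolic ribosomal proteins, led by Rps28 with 1654, 1623, 2226 and 2182 FPKM, Rps15a with a mean of 1807 and Rps24 with 1773. These 3 genes took the highest 3 places in each library. The other 5 were Npm1, a nucleolar assembly chaperone, at 1189 ± 114 FPKM (SD, n = 4), the cytosolic chaperone Hsp90ab1 at 1016 ± 95.6, the chromatin-associated prothymosin Ptma at 999 ± 104, the peroxiredoxin Prdx1 at 928 ± 160 and the cyclophilin Ppia at 926 ± 129. The summed share of 87 cytosolic ribosomal protein genes was 14.2%, 14.1%, 16.5% and 16.6%, with a list median of 596 FPKM. Genes such as Rps28 and Ppia have processed pseudogenes, so part of their fragments could be placed elsewhere.

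**Figure D3:**
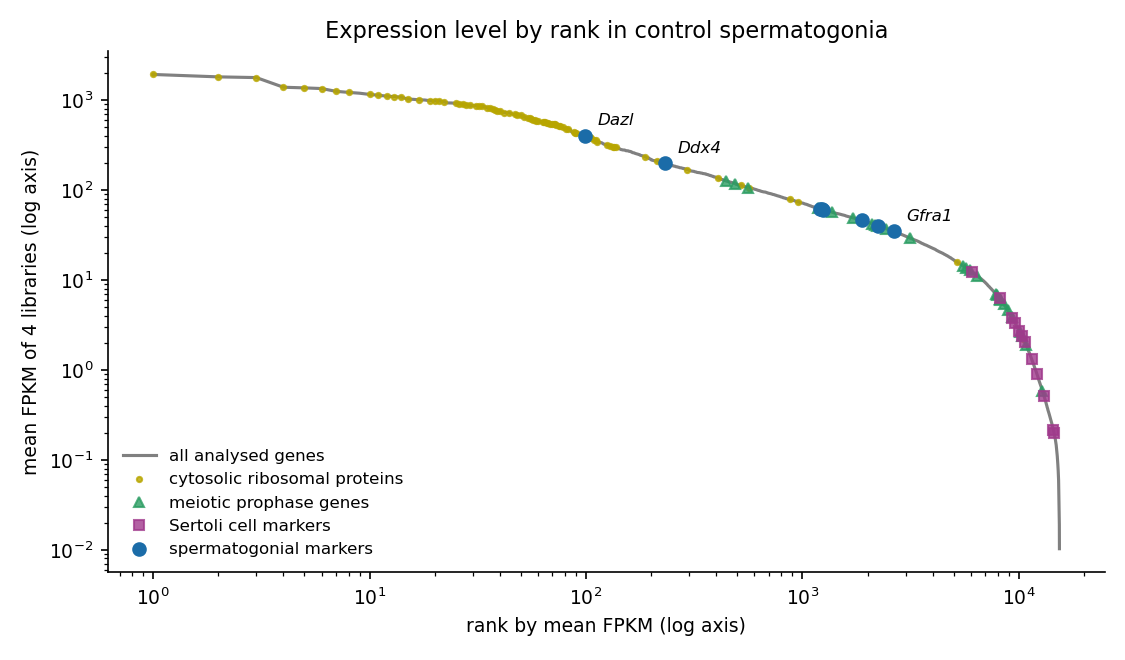
Mean FPKM of the 4 libraries (log axis) against rank by mean FPKM (log axis) for all analysed genes, with markers, cytosolic ribosomal proteins, meiotic prophase genes and Sertoli cell markers drawn on the curve. Ribosomal proteins fill the top, Dazl is at place 99, and Sertoli cell markers lie between 0.198 and 12.33 FPKM.

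Energy and protein folding genes followed. The 74 oxidative phosphorylation subunits had a median of 95.8 FPKM, and 73 of them reached 10 FPKM, led by the ATP synthase subunit Atp5b at 489 FPKM. Chaperones had a median of 273 FPKM and none of the 19 was under 92.8 FPKM. Translation factors had a median of 143 FPKM. Eif4a1, the initiation helicase, had 705, 657, 772 and 762 FPKM. Eef2, the ribosomal translocase, had 705, 666, 733 and 676 FPKM. The muscle and neuron form Eef1a2 was at 0.320 FPKM. Glycolytic genes were less uniform: the median of 21 genes was 12.4 FPKM, with Pkm at 268 and Gpi1 at 249 FPKM, and with the liver phosphofructokinase Pfkl at 1.16 and the lactate exporter Slc16a3 at 2.35 FPKM.

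Genes of cell division were expressed throughout. All 24 mitosis and replication genes exceeded 10 FPKM, with a median of 73.2 FPKM and the lowest, Rrm2, at 28.4 FPKM. Mcm7, a subunit of the replicative helicase, had 176, 154, 172 and 193 FPKM. Top2a, the mitotic topoisomerase, had 166, 112, 136 and 169 FPKM. Replicate 2 had the lowest value of both. The G1 kinase gene Cdk4 had 231, 216, 280 and 305 FPKM, and its most abundant transcript has only 468 bases. Ccnd2, the D-type cyclin of committed spermatogonia, exceeded Ccnd1 in all 4 libraries, by 1.26-fold to 1.34-fold. The inhibitor Cdkn2c and the retinoblastoma relative Rbl2 were the lowest of 19 G1 genes, at 1.83 and 1.56 FPKM.

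Meiotic genes were read as well. Of 27 analysed meiotic prophase genes 26 reached 1 FPKM and 15 reached 10 FPKM, against 11946 and 6783 of the 15421 analysed genes. The meiotic cohesin subunit Stag3 had 118, 124, 136 and 124 FPKM. The synaptonemal complex genes Syce2 and Sycp3 had 118 ± 2.83 and 106 ± 6.09 FPKM (SD, n = 4). Tex11, an X-linked crossover gene, had 62.6 FPKM. The recombination genes Msh4 and Meiob were the lowest, at 1.88 and 0.579 FPKM. The piRNA pathway, which silences transposons in germ cells, was also strongly represented, with 16 of 19 genes at 10 FPKM or more. Mael had 232, 213, 258 and 263 FPKM and Fkbp6 had 225, 217, 240 and 238 FPKM. Piwil2, the PIWI protein present from fetal germ cells on, had 138, 135, 119 and 104 FPKM. Tdrd6, a Tudor gene of later stages, was at 0.380 FPKM. Of 15 listed spermatid genes, only 8 were among the genes analysed. These 8 had a median of 2.11 FPKM, with 5 at 1 FPKM or more. Odf2, which also serves centrosomes, had 28.2 FPKM, the spermatid histone-replacement gene Tnp1 3.01 and the testis glycolytic gene Pgk2 0.173 FPKM.

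Pluripotency and primordial germ cell genes were split. Beside Pou5f1, Trim71 had 51.4, 46.3, 47.4 and 48.6 FPKM, Tcl1 23.5, 17.4, 34.7 and 38.9 FPKM and Dppa4 23.1, 21.3, 26.9 and 30.1 FPKM. Tcl1 and Dppa4 were higher in replicates 3 and 4. The list median was nevertheless 2.07 FPKM, below the 7.27 of all analysed genes, and 7 of 20 were under 1 FPKM. Myc and Tdgf1 were at 0.146 and 0.0402 FPKM. Nanog and Sox2, named after their values were seen as the classical partners of Pou5f1, were at 0.436 and 0.308 FPKM. Mycn, by contrast with Myc, had 22.3 FPKM.

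Receptor genes were expressed more widely than niche ligand genes. The 28 growth factor and cytokine receptors analysed had a median of 11.1 FPKM and 25 reached 1 FPKM, against 11946 of all 15421 analysed genes. The insulin-like growth factor receptor Igf1r had 41.4, 41.8, 38.8 and 37.9 FPKM. The bone morphogenetic protein receptor Bmpr1a had 39.0, 33.3, 32.7 and 38.3 FPKM. Gfra2 and Fgfr4 were under 1 FPKM, at 0.487 and 0.404. Of 20 listed niche ligands 16 were analysed, with a median of 0.763 FPKM, and 10 of these were under 1 FPKM. Gdnf itself had 0.464, 0.122, 0.119 and 0.142 FPKM, highest in replicate 1. Jag2, a Notch ligand of germ cells, was the most abundant ligand at 12.98 FPKM. In the retinoic acid pathway the cellular binding protein Crabp1 had 119, 120, 106 and 88.4 FPKM, and stood far above the receptors Rxra at 27.2, Rxrb at 24.9 and Rarg at 16.3 FPKM. The lowest of the 21 genes were the retinol transporter Stra6 at 0.282 FPKM and the retinoic acid hydroxylase Cyp26c1 at 0.189 FPKM.

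Chromatin genes were expressed above the all-gene median of 7.27 FPKM as lists. The H3K4 methyltransferase and demethylase genes had a median of 45.1 FPKM, led by Wdr5, a core subunit of the methyltransferase complexes, at 112 FPKM. The demethylases Kdm5b and Kdm5a had 91.2 and 79.5 FPKM. Their most abundant transcripts have 8714 and 689 bases, so these sums are not of like transcripts. Among partners of KDM1A, Hdac2 exceeded Hdac1 by 1.56-fold to 1.67-fold in all 4 libraries, with 123.1 ± 6.71 against 76.1 ± 3.76 FPKM (SD, n = 4). The corepressor Rcor2 exceeded Rcor1 by 12.34-fold to 21.3-fold, at 37.0 ± 5.68 against 2.34 ± 0.244 FPKM (SD, n = 4), and Rcor3 had 0.851 FPKM. The list median of KDM1A and CoREST genes was 30.5 FPKM. Among DNA methylation genes the maintenance pair Dnmt1 and Uhrf1 had 113 and 111 FPKM, while Tet1 and Tet2 had 0.183 and 0.348 FPKM. Among Polycomb genes Scml2, a germline member on the X chromosome, was the highest at 175 ± 13.4 FPKM (SD, n = 4), and Ezh2 exceeded Ezh1 by 2.97-fold to 4.47-fold.

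**Figure D4:**
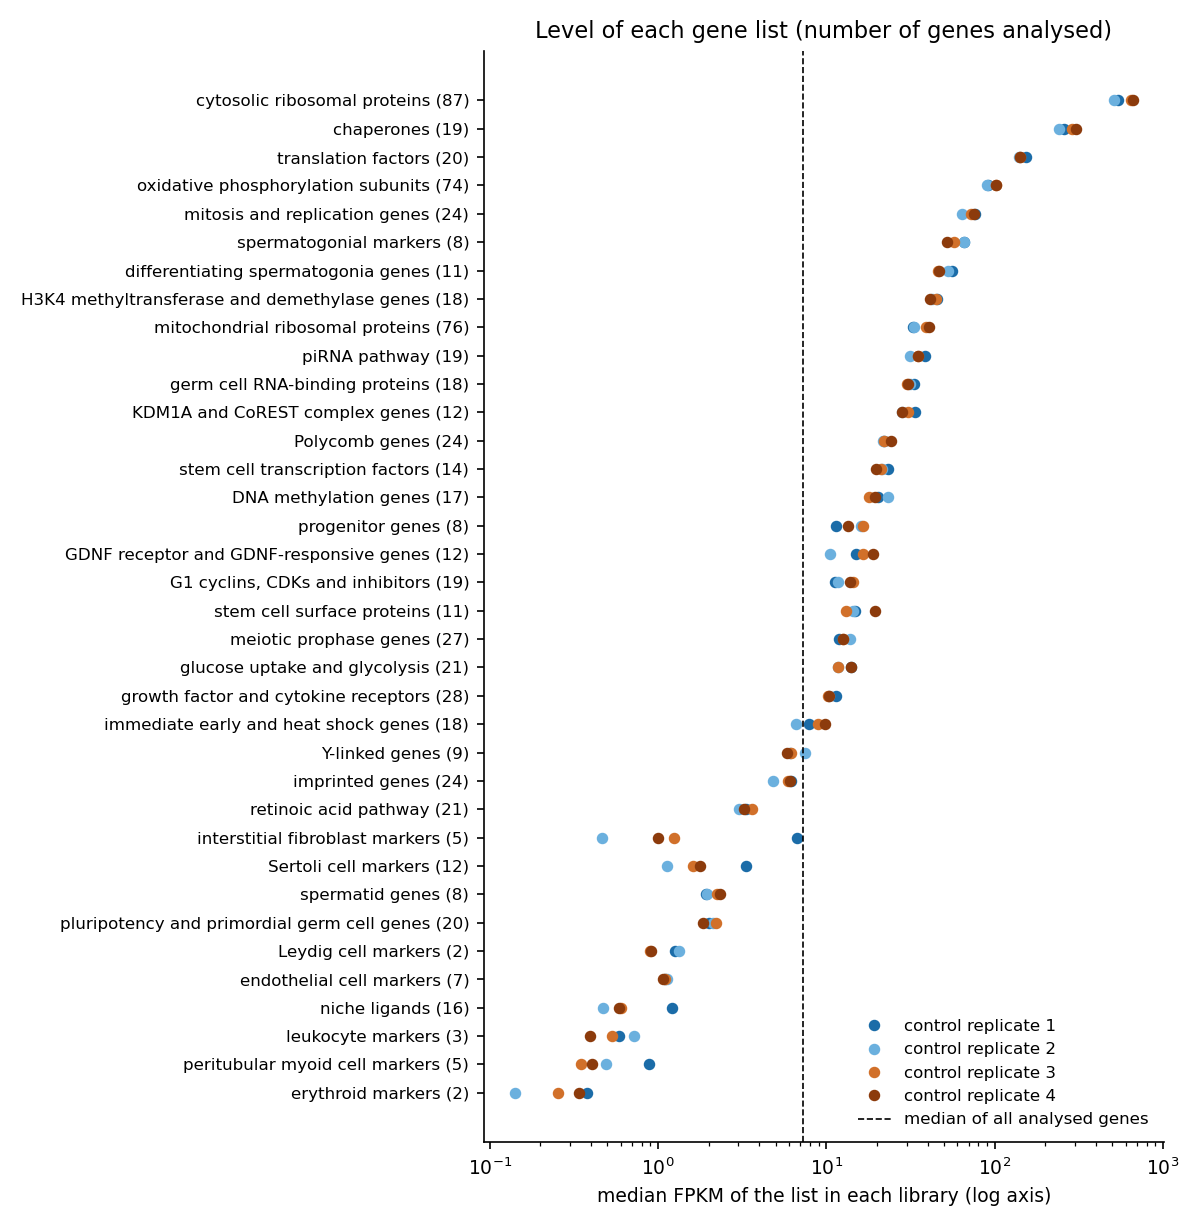
Median FPKM of each gene list in each control library (log axis), with the number of genes analysed in brackets and a dashed line at the median of all analysed genes, 7.27 FPKM. Translation, chaperone and respiration genes lie at the top, the chromatin lists and most germ cell lists above the line, and the pluripotency, spermatid, niche ligand and somatic cell lists below it, with replicate 1 the highest point for fibroblast and Sertoli cell markers.

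Markers of other testis cells were mostly low. The 36 somatic markers analysed had a median of 1.36 FPKM, close to the lower quartile of all analysed genes at 1.25. Listed markers not found among the analysed genes are left out of this median and of the counts below. Of the 36, 22 reached 1 FPKM, a smaller share than the 77.5% of all analysed genes. At 10 FPKM there were 2 of the 36, against all 8 spermatogonial markers and 6783 of the 15421 analysed genes. Summed over the 36, the level was 132 FPKM in replicate 1 and 74.9 to 83.1 FPKM in the other libraries, and replicate 1 had the highest value for 22 of 36, against 2279 of the 8692 genes of at least 5 FPKM. The Sertoli cell markers were highest there for 11 of 12. Clu, a secreted chaperone, had 25.1, 7.54, 7.05 and 9.62 FPKM, and Aard had 11.9, 4.12, 4.11 and 4.80 FPKM. Inha, the inhibin alpha gene, had 6.37, 2.12, 2.50 and 4.06 FPKM, and the transcription factor gene Wt1 had a mean of 2.69 FPKM. No Sertoli marker averaged 0, and the lowest of the 12 were Fshr, Gata1 and Sox9. Fshr had 0.375, 0.0898, 0.146 and 0.179 FPKM, and Sox9 and Gata1 had means of 0.517 and 0.217 FPKM. Interstitial fibroblast markers showed a larger excess in replicate 1, with Col1a2 at 6.68, 0.466, 1.24 and 0.996 FPKM, Col3a1 at 6.81, 0.329, 1.06 and 0.744 FPKM and Dcn at 4.27, 0.181, 0.450 and 0.436 FPKM. Col1a1 was an exception, at 25.9, 31.2, 29.4 and 28.1 FPKM, with no excess in replicate 1. Without replicate 1 the median of the somatic markers was 0.956 FPKM, and that of the spermatogonial markers was 58.2 against 60.8 FPKM with it. Peritubular, endothelial, Leydig, leukocyte and erythroid markers had list medians of 0.278 to 1.098 FPKM. Only 2 of 8 Leydig, 3 of 7 leukocyte and 2 of 6 erythroid markers were among the genes analysed, so those medians rest on few genes. Immediate early genes rise when tissue is dissociated. A list of 18 immediate early and heat shock genes had a median of 8.31 FPKM, led by Egr1 at 51.7, 49.8, 76.7 and 74.3 FPKM.

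Genes of the sex chromosomes and imprinted genes were also read. Over genes of at least 1 FPKM, the X-linked median was 0.7499, 0.760, 0.725 and 0.735 of the autosomal median, 0.743 ± 0.0155 (SD, n = 4), with 469 X-linked and 11381 autosomal genes. The ratio was lower with no minimum, 0.636, and higher at a minimum of 5 FPKM, 0.868. All 9 Y-linked genes of the list reached 1 FPKM. Against their X-linked partners, Y-linked copies differed widely. Eif2s3y, a translation initiation subunit needed for spermatogonial proliferation, exceeded Eif2s3x by 2.91-fold to 3.71-fold, at 53.2 ± 2.05 against 16.1 ± 1.22 FPKM (SD, n = 4). Uba1y was 0.528 to 0.693 of Uba1, while Ddx3y was 0.0737 to 0.130 of Ddx3x. Such pairs are similar in sequence, so fragments may be split between them. These pairs, like those of Hdac2, Rcor2, Ezh2 and Ccnd2 above, were chosen after values were seen. Imprinted genes had a median of 5.89 FPKM, with Dlk1 at 32.1 and H19 at 28.8 FPKM and with Airn and Magel2 lowest, at 0.149 and 0.154 FPKM.

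The 4 libraries correlated closely and not evenly. Pearson's r of log2(FPKM + 1) over the 11946 genes of at least 1 FPKM was 0.993 between replicates 3 and 4, 0.989 between 1 and 2, and 0.982 between 2 and 4, a description across genes, which are not independent replicates. Of the 8692 genes of at least 5 FPKM, 43 differed by over 1.5-fold on the log2(FPKM + 1) scale between replicates 3 and 4, 103 between 1 and 2, and 449 between 2 and 4. The coefficient of variation, the SD over the mean, had a median of 9.39% with 4.2% to 18.3% from the 10th to the 90th percentile, and 140 genes exceeded 30%. The steadiest genes above 10 FPKM included Pxn, which encodes paxillin, at 26.4, 26.3, 26.4 and 26.7 FPKM, the kinase Mapk8 at 52.3, 52.9, 52.2 and 52.8 FPKM and Birc6 at 72.9, 72.0, 72.1 and 71.7 FPKM. The others among the 8 steadiest were D230025D16Rik, Zkscan6, Cyb5r4, Nomo1 and Prrc2a, with coefficients of variation of 0.427% to 0.888%.

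The highest coefficients of variation were ranked among the 6775 genes of at least 10 FPKM with no value of 0. Genes with a 0 are given separately below, and several of them vary more. Of the 8 highest, 5 belonged to ribosomal pseudogenes, among them Rpl34-ps1 at 11.7, 11.4, 241 and 249 FPKM and Rps18-ps3 at 6.29, 55.5, 9.32 and 9.90 FPKM. Of the 25 highest, 6 had pseudogene symbols, against 65 of the 6775. These copies share nearly all their sequence with functional genes, so their values are uncertain. The other 3 were Clu, the glutathione transferase Gstm2 at 22.8, 5.41, 7.10 and 10.3 FPKM, and the epithelial cadherin Cdh1 at 14.4, 6.26, 8.68 and 19.6 FPKM. Clu and Gstm2 were highest in replicate 1. A long noncoding RNA entry at chr17:39846958-39848788, in an assembly region known to hold ribosomal RNA repeat sequence, also differed: RP23-81C12.3, listed as Gm42418 in GENCODE M21, had 1108, 1176, 531 and 554 FPKM. Lars2, the mitochondrial leucyl-tRNA synthetase gene, had 139, 97.5, 58.4 and 57.9 FPKM. Both were higher in replicates 1 and 2. These entries were picked out once their values were known.

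A further pattern moved with the same libraries. Genes were put in 6 bins by the length of their most abundant transcript, and each gene's deviation from its own mean over the libraries was taken on log2(FPKM + 1). In the shortest bin, 183 to 1197 bases, the median deviation was -0.10, -0.12, 0.10 and 0.13 in replicates 1 to 4. In the longest bin, from 4861 bases, it was 0.11, 0.04, -0.04 and -0.10. The deviations of Kit, whose main transcript has 5241 bases, were 0.45, 0.45, -0.38 and -0.52, and those of Gfra1, with 4415 bases, were -0.28, -0.40, 0.20 and 0.48. Kit and Gfra1 thus went in opposite directions at similar lengths. The bin values are medians over many genes, so the size of a shift in a single gene cannot be set against them. For Stra8, with 1207 bases, the deviations were 0.21, 0.23, -0.10 and -0.34, against the direction of its bin. For ribosomal proteins they were -0.13, -0.22, 0.17 and 0.20 as a median, and for the other genes of the shortest bin -0.10, -0.11, 0.09 and 0.12. The part of transcript length in differences between these libraries was not tested.

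**Figure D5:**
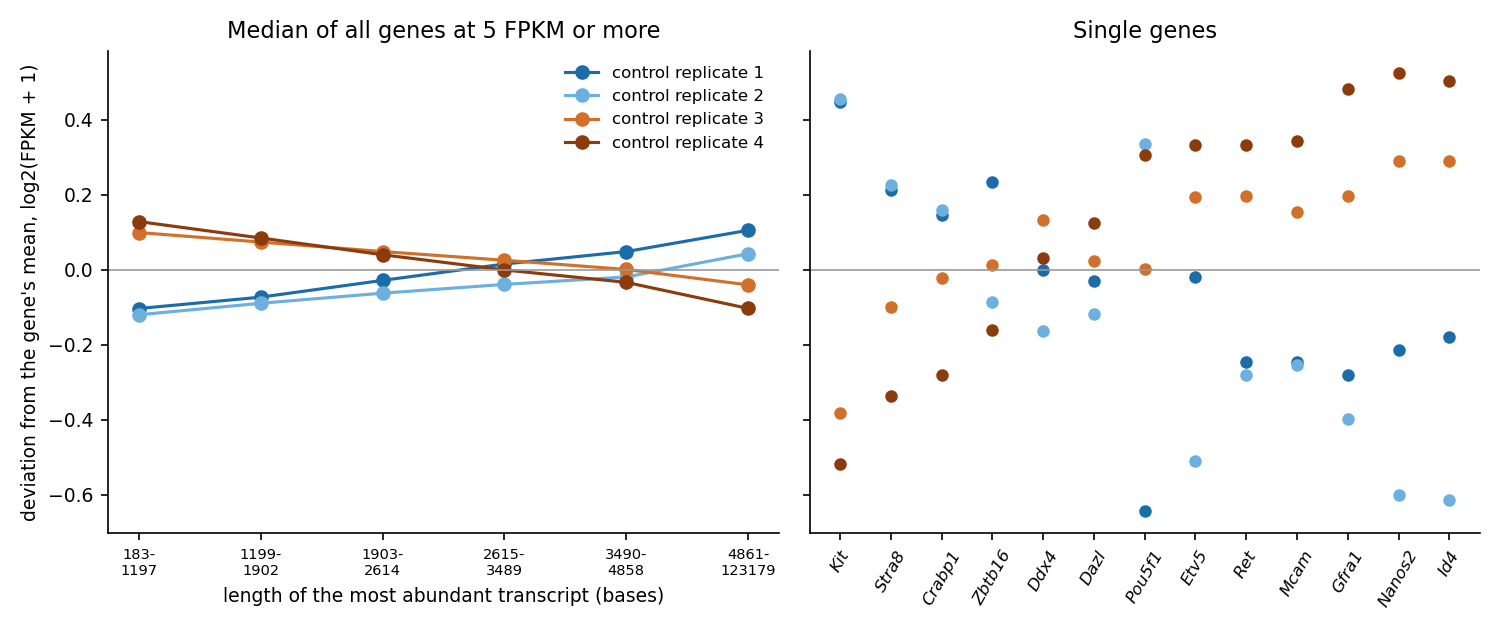
Deviation from each gene's mean over the 4 libraries in log2(FPKM + 1), as medians over genes binned by transcript length (left) and for single genes (right), by control library. Short transcripts lie higher in replicates 3 and 4 and long ones in replicates 1 and 2, while Kit and Gfra1, at 5241 and 4415 bases, lie on opposite sides of 0.

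For 9 genes a value of exactly 0 stood beside at least 5 FPKM in every library not at 0. Acin1, a splicing-associated factor, was listed at 0 in replicate 3 and at 112 to 131 FPKM in the other libraries. The entry Hspa14, whose identifier is Gm45902 in GENCODE M21, was listed at 79.2, 0, 82.2 and 87.9 FPKM. Clns1a, which serves assembly of splicing particles, was listed at 46.9, 0, 51.0 and 49.6 FPKM. Nfe2l1 was at 0 in replicates 2 and 3, and Camsap1 was at 0 in every library but replicate 3, where it had 78.04 FPKM. Replicate 2 was at 0 for 6 of the 9 genes. Some of these genes are neighbours that shared the 0: Acin1, at chr14:54642161-54686931, overlaps 1700123O20Rik, at chr14:54686216-54690741, and both were at 0 in replicate 3 alone. Rsf1, at chr7:97579889-97692778, lies next to Clns1a, at chr7:97696634-97720796, and both were at 0 in replicate 2 alone. Such a 0 can be a failed estimate rather than an absence, and no mean is given for these genes.

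Promoters were taken from RefSeq on GRCm38.p6, 250 bases before to 50 after the start site nearest to that of the most abundant transcript, for 11574 of the 15421 genes. That start site lay within 50 bases of the transcript's own start for 68.8% of these genes. For the rest it lay further off, by 165 bases for Ddx4 and 806 for Gfra1, so their windows may miss the promoter in use. The median GC content was 62.3% for genes of at least 10 FPKM, 61.0% for those of 1 to 10 FPKM and 56.0% for those under 1 FPKM. Motifs were searched as fixed letters on both strands. GGGCGG, the core of the GC box, was found in 70.9%, 63.5% and 45.2% of those classes, and CCGGAA, the core bound by ETS factors, in 35.3%, 24.8% and 10.97%. TATAAA went the other way over these 3 classes, with 5.83%, 6.81% and 11.2%. Among the 500 highest genes, of which 406 had a promoter, it was found in 9.11%, so its share did not fall steadily with level. Over all 32851 promoters of the same length in the reference, the shares were 35.7% for the GC box letters, 14.9% for the ETS letters and 13.6% for the TATA letters. A match describes the letters in this window and is not a measured binding site.

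Some lists shared a motif. CCAAT, the letters of the CCAAT box, was found in 19 of 21 promoters of mitosis and replication genes, 90.5%, against 38.9% of all analysed promoters. Windows of 60 bases that hold it are shown for the 3 most abundant genes that have it before the start site, with the motif or its reverse complement ATTGG in capitals. They lie on the minus strand at chr5:138171884-138171943, chr11:99024216-99024275 and chr2:132253236-132253295.
Mcm7: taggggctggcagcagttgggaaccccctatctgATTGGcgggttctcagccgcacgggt
Top2a: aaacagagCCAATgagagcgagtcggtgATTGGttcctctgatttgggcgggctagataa
Pcna: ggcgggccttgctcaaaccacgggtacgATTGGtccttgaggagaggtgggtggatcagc
CACGTG, a palindromic E-box, was found in 8 of 17 promoters of the piRNA pathway and in 6 of 22 of the meiotic prophase genes, 47.1% and 27.3%, against 10.2% of all analysed promoters and 7.15% of all in the reference. In the piRNA list the genes with the motif had a median of 89.2 FPKM and those without it 27.8 FPKM. The windows shown are at chr1:166238935-166238994, chr5:135350049-135350108 and chr13:112652311-112652370 on the minus strand, and at chr15:88982744-88982803 on the plus strand.
Mael: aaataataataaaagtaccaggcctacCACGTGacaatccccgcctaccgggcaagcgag
Fkbp6: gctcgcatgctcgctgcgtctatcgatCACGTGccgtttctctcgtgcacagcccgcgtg
Ddx4: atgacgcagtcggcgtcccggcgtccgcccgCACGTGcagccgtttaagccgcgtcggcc
Mov10l1: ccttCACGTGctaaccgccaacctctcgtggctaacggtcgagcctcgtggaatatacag
CCGGAA was found in 32 of 62 ribosomal protein promoters, 51.6%, against 26.97% of all analysed promoters, and those with and without it had medians of 587 and 579 FPKM. Of these, Rps18 is shown, at chr17:33955708-33955767 on the minus strand, where the motif overlaps its reverse complement TTCCGG.
Rps18: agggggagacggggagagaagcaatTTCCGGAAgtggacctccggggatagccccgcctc
These lists are small and were compared by their counts alone.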

How the data were processed

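RNA from sorted control spermatogonia was read from a table of 45550 transcripts. The authors deposited FPKM for each transcript. The tools named are Cuffdiff, Cufflinks, TopHat and Bowtie, with mm10 as the build, per the submitters' processing notes. For versions, annotation and strand setting, nothing is stated in the labels or headers. Per the labels' protocols, libraries were stranded mRNA libraries made from total RNA. FPKM are estimates scaled to library size and were not tested as counts.

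Control replicates 1 to 4 were the only libraries used, with no test, since they form 1 group. Transcripts were summed by gene identifier. Symbols starting Mir, Snor or Scarna, or Rn or Gm followed by a digit, were left out, so that genes such as Rnf2 stayed. Types, positions and coding sequences were taken from GENCODE M21 (GRCm38, which mm10 also denotes). It held 44291 of the transcripts and 17257 of the 17589 genes. Its current symbols may differ. Among the symbols, 21 were altered to dates.

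Depth was inferred from 2615 genes with a single transcript over 600 bases. Low FPKM were compared with whole multiples of the value of a single fragment, and 73.2% to 75.4% of values lay within 0.1 of a whole number, against 20% by chance. The result was 62000000, 63250000, 67000000 and 61000000 fragments. In a transcript of a kilobase, 3 fragments are then worth 0.0448 to 0.0492 FPKM.

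Means ± SD, coefficients of variation, ranks, transcript shares, Pearson's r on log2(FPKM + 1) with a pseudocount of 1, and list medians were computed in Python 3.11.15 with pandas 2.3.3 and numpy 2.4.6, and checked on simulated data. Named genes were the 8 markers, the 25 highest genes, up to 4 highest and 2 lowest members of each list, the 8 highest and 8 lowest coefficients of variation above 10 FPKM among genes with no 0, up to 8 genes with a 0, an isoform panel, and the 8 highest genes of each transcript class at 50 FPKM or more. Other genes and the coding segments were chosen after values were seen. Members and lists were chosen with earlier results of these data known. Alternatives covered left-out libraries, scaling, left-out symbols, transcript choice, gene types and thresholds.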

Additional observations from a re-analysis of the deposited data

Results flagged for a closer look

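In a group of 4, a library was singled out where its gap to the nearest other took up most of the whole range, by Dixon's criterion, which chance gives in about 1 group of 20. Of 235 named genes 25 met this, together with 1 of 22 coding segments and 1 of 36 lists. The named genes include those chosen for a high coefficient of variation or for a 0, so their count cannot be read against that chance rate.

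Replicate 1 was high for 8 genes, 7 of them from the somatic marker and ligand lists: Clu at 25.1 FPKM, Aard at 11.9, Col1a2 at 6.68, Col3a1 at 6.81, Dcn at 4.27, the steroidogenic factor Nr5a1 at 1.30 and Gdnf at 0.464 FPKM, beside Cdk2 at 51.9 FPKM. Replicate 2 was high for the ribosomal pseudogenes Rps18-ps3 at 55.5 and Rps2-ps10 at 176.8 FPKM, for Star at 2.16, Tagln at 2.91 and Odf1 at 0.280 FPKM, and low for Mrps5 at 145 FPKM. It also had the highest share of the Gfra1 exon, 31.6%, and the lowest mean log2(FPKM + 1) of the imprinted genes, 2.43 against 2.60 to 2.63. Replicate 3 was high for Kdm1a, at 92.0 against 48.1 to 54.0 FPKM, and for Alas2 at 0.305 FPKM. Replicate 4 was high for Pdia6 at 101.6 FPKM and low for Rcor3 at 0.640 FPKM.

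Values of 0 stood apart for Acin1 and 1700123O20Rik in replicate 3, and for Hspa14, Clns1a, Snapc4 and Rsf1 in replicate 2, each listed at 0. Camsap1 was the reverse, at 78.04 FPKM in replicate 3 and listed at 0 in the others.

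Outside the analysed genes, the left-out symbols held 72.4% of all summed FPKM on average, from 66.9% to 79.1%. Most of this was the single entry Mir5105, with 77.1%, 61.3%, 66.2% and 63.7% of the FPKM of all entries. Shares given for analysed genes leave it out.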

How the results depend on the processing

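No paired analysis was possible because only 1 group was described and no test was made. Of 111 recomputed values of 12 results, 87 moved by no more than an SD taken as the spread or, for counts, by no more than 1.5-fold. The SD was taken over libraries, or over pairs of libraries for the correlations. For the median coefficient of variation it was the SD of the values with 1 library left out. Its shifts on leaving out a library were therefore judged against their own spread. Leaving out each library gave 11923 to 11977 genes of at least 1 FPKM, a median coefficient of variation of 8.34% to 9.91%, a somatic marker median of 0.956 to 1.55 FPKM with the lowest value without replicate 1, a lowest correlation of 0.982 to 0.986 and a highest of 0.989 to 0.993. The lowest value of the last was without replicate 3. With all symbols kept, the top 25 genes held 72.7% and the top 1000 held 85.5% of summed FPKM, and the X-linked ratio was 0.725. With only the most abundant transcript of each gene these were 8.75%, 53.3%, a median coefficient of variation of 10.1% and a spermatogonial marker median of 51.9 FPKM. The X-linked ratio was 0.759 for protein-coding genes, 0.673 with a minimum of 0.1 FPKM and 0.636 with none. The median coefficient of variation was 12.7% with no minimum and 8.52% at 20 FPKM, and the median SD of log2(FPKM + 1) was 0.13. Dominant transcripts numbered 2079 at 75% and 2226 at a minimum of 20 FPKM. Genes with a changing top transcript numbered 295 at 20 FPKM, and 360 when transcripts of the same coding sequence were merged, an alternative chosen after seeing the data. The lowest correlation was 0.976 with a pseudocount of 0.1 and 0.989 with no minimum. The causes of these shifts were not tested, apart from the fewer genes counted at higher minimums. Values up to 0.0492 FPKM rest on 3 or fewer fragments per kilobase. Both rescalings of the libraries, run on all results but the correlations, left those results within their spread or, for counts, within 1.5-fold.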
